A study of Mus musculus with 8 samples.

Results

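A stretch of mouse chromosome 6 was read gene by gene in RNA sequencing libraries of an epicardial cell line in which CRISPR/Cas9 had been directed at Hdac3 (KO) and of the same line carrying an empty vector (EV). The stretch runs from position 52546228 to 58692869 (mm10), a length of 6.15 Mb, and opens just past the Hoxa cluster. It takes every row of the deposited count table that lies wholly inside these limits, whatever the gene type, which gave 99 of 35275 genes. The limits and the members were chosen from this same contrast, because neighbouring genes were lower in KO than in EV, so the KO and EV values of the members are given as a description and support nothing by themselves.

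The KO group held 4 libraries from mouse epicardial cells (MCEC, as the labels abbreviate them) transduced with a lentivirus for an Hdac3 sgRNA, and the EV group 4 libraries from the same cells transduced with an empty lentivirus. All were grown in high-glucose medium with bovine serum. The labels do not say whether the KO cells were a pool or a clone, or whether replicates were separate cultures, so any error given here covers the spread between these libraries, which may be technical. KO replicate 1 carries the empty vector in its characteristics while its title says KO, and it was grouped by its title. In bulk RNA, fewer cells of a kind and less RNA per cell cannot be told apart.

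Library totals lay between 19173812 and 24564892 counts in KO and between 18063745 and 22289125 counts in EV. Levels are given as CPM, counts relative to the size of the library, with library sizes scaled by TMM, which corrects for composition. Hdac3 itself, which is no member, stood at 63.2, 56.9, 63.9 and 62.6 CPM in KO replicates 1 to 4, against 60.3, 61.4, 64.0 and 61.7 CPM in EV replicates 1 to 4 (exact permutation test over 70 arrangements, two-sided, p = 0.943), so its transcript level does not check the labels. Of 12 epicardial and mesothelial markers, 11 averaged at least 1 CPM and 6 were higher on average in KO. Their summed levels were 4314 to 4450 CPM in KO and 4262 to 4513 CPM in EV, but single markers differed in opposite directions. Upk3b (1465 CPM in KO and 1858 CPM in EV) and Wt1 (263 CPM in KO and 341 CPM in EV) were lower in KO. Msln (926 CPM in KO and 683 CPM in EV) and Krt18 (654 CPM in KO and 449 CPM in EV) were higher. Aldh1a2 averaged 0.251 CPM in KO and 0.407 CPM in EV. The summed level of 9 liver markers was 12.6 to 26.8 CPM in KO and 5.36 to 8.55 CPM in EV, with 9 of the 9 higher on average in KO. Only 2 of the 9 averaged at least 1 CPM over all libraries: Alb (8.98 CPM in KO and 2.61 CPM in EV) and Ces1g (6.91 CPM in KO and 2.41 CPM in EV). For 5 endothelial markers, 2 of them higher in KO, the summed level was 18.8 to 20.8 CPM in KO and 24.7 to 28.4 CPM in EV. Most of it was Kdr (14.6 CPM in KO and 21.7 CPM in EV) and Tek (5.19 CPM in KO and 3.89 CPM in EV), which differed in opposite directions. For 6 cardiomyocyte markers, 3 of them higher in KO, the summed level was 111 to 127 CPM in KO and 144 to 156 CPM in EV. Nearly all of it was Tnnt2 (115 CPM in KO and 145 CPM in EV on average). The 4 smooth muscle markers, 1 of them higher in KO, summed to 862 to 1057 CPM in KO and 899 to 1112 CPM in EV. The 4 blood and macrophage markers in the table, 3 of them higher in KO, summed to 9.35 to 10.6 CPM in KO and 5.81 to 7.07 CPM in EV. Most of that sum was Cd68 (7.89 CPM in KO and 4.74 CPM in EV). The part of these cells or transcripts in the values of the window was not tested.

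Genes that lie side by side on a chromosome share its copies and often a stretch of chromatin, which is why expression can be read in genomic order as well as by function. Hdac3 removes acetyl groups from histones within the NCoR corepressor complex, which nuclear receptors and other DNA-binding factors bring to chromatin. The genes of this stretch do unrelated work: a tRNA synthetase, folding enzymes of the endoplasmic reticulum, ubiquitin ligases, receptors, a water channel and a drug efflux pump stand beside a large family of pheromone receptors that serve the vomeronasal organ of the nose. DNA copy number and chromatin were not analysed here.

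Of the 99 members, 30 passed the filter on low counts and were fitted together with all other genes, 58 had no count in any library, and 11 had a few counts. Among the 30 that were fitted, 26 were lower on average in KO and 4 higher, with a median log2 fold change of −0.23, or 0.853 times the EV level. In the fit over all 12801 genes (edgeR, adjusted p under 0.05), 14 of the 30 were called lower, where 13.4% of all genes tested were, and 1 was called higher, where 12.6% of all genes tested were. The same 14 members were those whose 4 KO libraries all lay below all 4 EV libraries, where 13.9% of all genes tested did. Without KO replicate 1, whose labels disagree, the median was −0.22 and the same 14 were called lower, where 1382 of 12956 genes tested were. Since the members were chosen for being lower, nothing is read from these shares. The fitted members are also not all members, because a gene had to reach a minimum count to be among them.

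The lower levels were mostly shallow and were present in every KO library. The median log2 deviation of the 30 members from their EV means was −0.19, −0.17, −0.20 and −0.19 in KO replicates 1 to 4, against −0.039, −0.012, 0.024 and 0.043 in EV replicates 1 to 4. All 4 KO libraries lay below all 4 EV libraries. Member by member, 22 of the 30 were below their EV mean in all 4 KO libraries, Vopp1 was above it in all 4, and 7 were mixed. The same count was not made over all genes tested, and the members were chosen for being lower, so nothing is read from it. Summed over all 99 members, the window held 1611, 1634, 1631 and 1677 CPM in KO, against 1812, 1811, 1863 and 1885 CPM in EV. The means were 1638 ± 27.6 CPM in KO and 1843 ± 37.2 CPM in EV (SD, n = 4 each), a ratio of 0.889, and without Fkbp9, the member with the most counts, the ratio was 0.874.

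**Figure D1:**
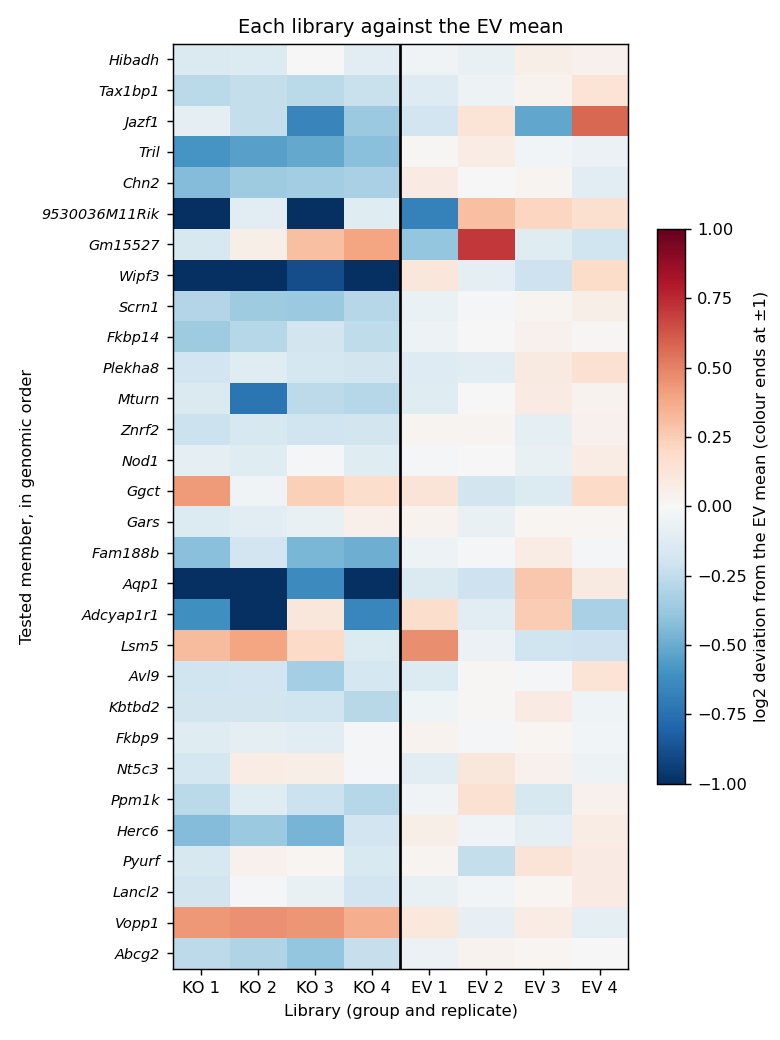
Log2 deviation of each of the 30 fitted members from its EV mean, with members in genomic order down the page and the 4 KO libraries left of the 4 EV libraries. Blue, below the EV mean, fills most of the KO side, where 22 of 30 members are below it in all 4 libraries, and Vopp1 stands out in red. No such count was made over all genes tested.

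Members with more reads varied less among themselves. The 18 with a mean of at least 20 CPM had log2 fold changes between −0.51 and 0.42, of which 17 were below 0 and 16 lay between −0.4 and 0, with an SD of 0.193 beside a median standard error of 0.0542. The 12 under 20 CPM ranged from −1.33 to 0.20, with 9 below 0, an SD of 0.488 and a median standard error of 0.156. Across the 30 members, which share these 8 libraries, the log2 fold change had a Spearman correlation of 0.29 with the EV level, −0.17 with gene length and 0.35 with position along the window. Over all genes tested the correlation was −0.00825 with the EV level and −0.164 with gene length, so the value for length is not particular to the window. By strand, 15 of 15 members on the plus strand were below 0 (median −0.29) and 11 of 15 on the minus strand (median −0.097). Of all genes tested, 49.0% were below 0, and the count by strand was not made over them. The members were chosen for being lower, so nothing is read from these counts.

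Among called members, those that stood farthest from EV were Aqp1, Wipf3 and Tril on the low side and Vopp1 on the high side. Their promoters are shown because these are the called members with a log2 fold change under −0.5 or above 0. They run from 250 bases before to 50 after the RefSeq start site, 5′ to 3′ on the gene's strand, in build GRCm38.p6, the assembly behind mm10: Tril on the minus strand at chr6:53820776-53821075, Wipf3 on the plus strand at chr6:54429436-54429735, Aqp1 on the plus strand at chr6:55336049-55336348 and Vopp1 on the minus strand at chr6:57825076-57825375. Capitals mark matches on either strand to TATAAA (the TATA box), CCAAT (the CCAAT box), GGGCGG (the GC box), CACGTG (an E-box), AGGTCA (a nuclear receptor motif) or TGANTCA (an AP-1 motif), and matches that overlap run together.
Tril: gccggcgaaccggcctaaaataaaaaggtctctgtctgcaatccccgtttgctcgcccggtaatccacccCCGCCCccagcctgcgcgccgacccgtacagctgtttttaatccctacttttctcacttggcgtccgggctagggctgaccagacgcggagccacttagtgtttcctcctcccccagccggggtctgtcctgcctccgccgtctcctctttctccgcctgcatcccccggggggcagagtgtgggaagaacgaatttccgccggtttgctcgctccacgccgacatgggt
Wipf3: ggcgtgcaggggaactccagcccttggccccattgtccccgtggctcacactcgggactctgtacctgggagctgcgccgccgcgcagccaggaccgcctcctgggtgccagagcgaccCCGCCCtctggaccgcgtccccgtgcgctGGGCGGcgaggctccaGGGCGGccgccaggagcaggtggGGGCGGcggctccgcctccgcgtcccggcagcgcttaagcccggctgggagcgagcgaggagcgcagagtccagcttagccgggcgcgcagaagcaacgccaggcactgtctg
Aqp1: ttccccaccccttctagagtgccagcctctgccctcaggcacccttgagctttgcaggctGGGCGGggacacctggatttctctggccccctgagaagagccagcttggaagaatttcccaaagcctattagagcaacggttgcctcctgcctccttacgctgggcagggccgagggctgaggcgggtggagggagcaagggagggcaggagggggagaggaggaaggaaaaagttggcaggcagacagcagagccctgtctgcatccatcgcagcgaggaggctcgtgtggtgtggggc
Vopp1: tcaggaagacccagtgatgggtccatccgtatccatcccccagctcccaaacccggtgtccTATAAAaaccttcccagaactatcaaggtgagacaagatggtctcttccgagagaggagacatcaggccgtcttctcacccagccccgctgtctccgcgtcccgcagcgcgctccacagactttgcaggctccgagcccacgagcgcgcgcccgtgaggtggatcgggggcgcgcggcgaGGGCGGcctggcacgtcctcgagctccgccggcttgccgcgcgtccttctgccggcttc

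In these 4 promoters the capitals are GC boxes (GGGCGG read on either strand), with 4 in Wipf3 and 1 each in Tril, Aqp1 and Vopp1, and a TATAAA in Vopp1 at position −189 from the start site. RefSeq promoters were matched for 29 of the 30 members, all but Lancl2, and for 76.9% of all genes tested. The match took the RefSeq start site nearest the gene's 5′ end in the count table, with no limit on distance. For 2 minus-strand members it lay well inside the gene: Nt5c3 (promoter 56901837-56902136, 5′ end 56923932) and Gm15527 (promoter 54254945-54255244, 5′ end 54279076). GGGCGG was present in 23 of the 29 members' promoters (79.3%), in 66.2% of the 9849 promoters of tested genes and in 35.7% of all 32851 promoters in the table. AGGTCA, the core of many nuclear receptor sites, was in 7 of the 29 (24.1%), namely Hibadh, Tax1bp1, Plekha8, Ppm1k, Herc6, Pyurf and Abcg2, against 11.5% of tested genes and 16.3% of all promoters. CCAAT was in 9 members (31.0%, against 38.9% of tested genes and 37.4% of all), and TATAAA in Mturn, Vopp1 and Abcg2 (10.3%, against 6.84% and 13.6%). CACGTG, an E-box, and TGANTCA, an AP-1 motif, were in none of the 29, against 10.4% and 4.69% of tested genes and 7.15% and 7.81% of all promoters. The median number of CpG pairs was 20 in the members and 21 in promoters of tested genes. A match is a description of letters and no sign that a factor binds.

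Aqp1, a water channel of mesothelium and small vessels (chr6:55336432-55348555), had the lowest log2 fold change of the window. It stood at 1.70, 1.32, 3.66 and 2.33 CPM in KO, against 5.15, 4.94, 6.90 and 6.07 CPM in EV, a log2 fold change of −1.33 (SE 0.222), or 2.52-fold lower. Its groups did not overlap, and KO replicate 3 was the highest and KO replicate 2 the lowest of the KO libraries. Abcg2, the other transporter and the last gene of the window (chr6:58584523-58692869), exports drugs, porphyrins and urate. Abcg2 had 53.7, 52.2, 49.2 and 54.7 CPM in KO, against 61.8, 65.7, 65.1 and 64.3 CPM in EV, and a log2 fold change of −0.29 (SE 0.0524). The gap between its groups was wider than the spread inside either.

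Among regulators of small GTPases, actin and membrane traffic, all 5 fitted members were below 0, where 49.0% of all genes tested were, and 4 were called lower, where 13.4% were. The window was chosen for lower levels, so nothing is read from this count. Wipf3, a partner of WASP-family proteins in actin assembly (chr6:54429603-54503768), had 2.65, 1.81, 3.10 and 2.29 CPM in KO, against 6.25, 5.42, 4.999 and 6.55 CPM in EV. That was a log2 fold change of −1.23 (SE 0.168) with groups well apart, from 37 to 72 counts in KO libraries and 108 to 138 in EV libraries. Chn2, a GTPase-activating protein for Rac, had 35.6, 37.5, 37.8 and 38.4 CPM in KO, against 50.8, 48.0, 49.0 and 44.4 CPM in EV (−0.36, SE 0.0587). Scrn1, a cytosolic protein linked to exocytosis, had 103, 98.9, 98.0 and 104 CPM in KO, against 120, 125, 129 and 132 CPM in EV (−0.33, SE 0.0460). Every KO library of Chn2 and of Scrn1 lay below every EV library. Avl9, which acts late in secretion, had 91.1, 91.4, 82.4 and 92.3 CPM in KO and 94.8, 105, 104 and 115 CPM in EV (−0.23, SE 0.0575). Plekha8, which carries glucosylceramide between Golgi membranes, overlapped between groups, with 27.7 to 29.0 CPM in KO and 28.8 to 35 CPM in EV (−0.17, SE 0.0712). Plekha8 was called lower without EV replicate 1 and with library totals alone, where 69.9% of called genes were lower.

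Genes of protein folding and ubiquitin were below 0 in 7 of 7 cases, and 6 of these were called lower, where 13.4% of all genes tested were. As with every group of members here, the choice of the window for its lower levels bears on this count. Tax1bp1, an adaptor that brings ubiquitinated cargo to autophagosomes (chr6:52713729-52766780), had 221, 227, 221 and 228 CPM in KO, against 245, 259, 273 and 294 CPM in EV. Its log2 fold change was −0.26 (SE 0.0510), and the KO libraries were much closer together (SD 3.65 CPM) than the EV libraries (SD 21.1 CPM). The prolyl isomerases of the endoplasmic reticulum differed in size of change: Fkbp14 had 56.4, 59.2, 63.5 and 60.5 CPM in KO and 69.5, 71.7, 74.2 and 72.7 CPM in EV (−0.27, SE 0.0517), while Fkbp9 had 381, 387, 383 and 408 CPM in KO and 424, 408, 420 and 405 CPM in EV (−0.09, SE 0.0420). Fkbp9 overlapped between groups and was not called, but it was called lower with library totals alone and in the 3 limma fits on FPKM. In those settings, which carry no correction for library composition, 69.9% to 70.3% of called genes were lower, against 51.5% in the main fit. The difference between the log2 fold changes of Fkbp14 and Fkbp9 was not tested. Kbtbd2, a substrate adaptor of cullin 3 ligases, had 81.3, 81.2, 80.2 and 76.0 CPM in KO and 89.5, 92.7, 97.5 and 89.3 CPM in EV (−0.21, SE 0.0488). Znrf2, a membrane-bound ubiquitin ligase, had 49.0 to 50.9 CPM in KO and 53.3 to 58.7 CPM in EV (−0.19, SE 0.0526). Herc6, the ligase that attaches ISG15 in mouse, had 7.16 to 8.65 CPM in KO and 9.26 to 10.4 CPM in EV (−0.36, SE 0.103). Fam188b, now named Mindy4 and related to deubiquitinases, had 5.28 to 6.47 CPM in KO and 7.12 to 7.78 CPM in EV (−0.39, SE 0.115). The groups of Kbtbd2, Znrf2, Herc6 and Fam188b did not overlap. Fam188b and Herc6 were no longer called without KO replicate 3, and Fam188b also without KO replicate 4.

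**Figure D2:**
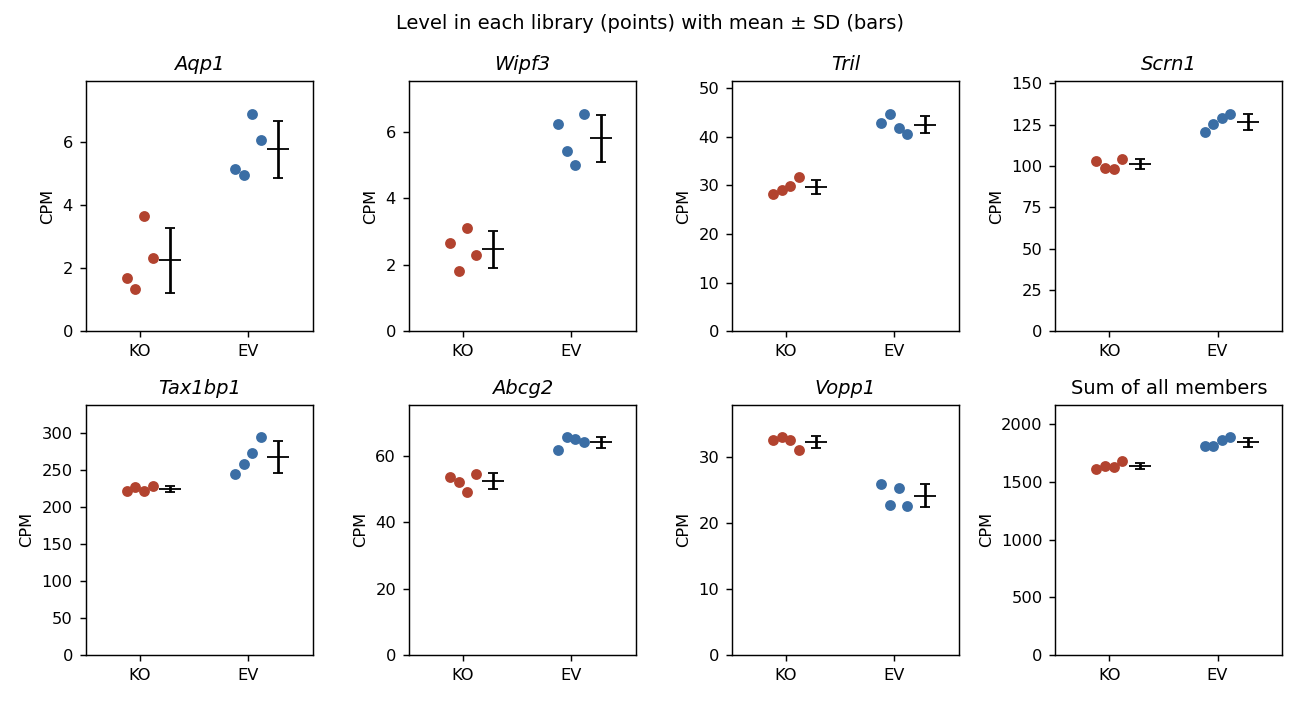
CPM in each library (points, KO left of EV) with mean ± SD (bars) for 7 members and for the sum of all 99 members, each axis starting at 0. Aqp1 and Wipf3 are far lower in KO, Tril, Scrn1, Tax1bp1, Abcg2 and the sum are moderately lower, and Vopp1 is higher.

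Among receptors and signalling genes, 4 of 5 fitted members were below 0, where 49.0% of all genes tested were. Of the 5, 1 was called lower and 1 higher, where 13.4% and 12.6% of all genes tested were, and nothing is read from these counts. Tril, which helps Toll-like receptor 4 respond to bacterial lipopolysaccharide (chr6:53815466-53820830), had 28.2, 29.1, 29.8 and 31.7 CPM in KO, against 42.7, 44.7, 41.7 and 40.6 CPM in EV. Its log2 fold change of −0.51 (SE 0.0608) was the lowest among members above 20 CPM. Nod1, a cytosolic sensor of bacterial peptidoglycan, had 84.8 to 90.9 CPM in KO and 87.8 to 97.4 CPM in EV (−0.09, SE 0.0487), so its groups overlapped. Nod1 was called lower with library totals alone, where 69.9% of called genes were lower. Adcyap1r1, the receptor for the neuropeptide PACAP, was close to the limit of the counts, with 0.637 to 1.42 CPM in KO and 1.04 to 1.57 CPM in EV (−0.49, SE 0.285). Vopp1, a vesicular membrane protein (chr6:57727807-57825154), was the member called higher, and Ggct, Lsm5 and Gm15527 were above 0 without being called. It had 32.6, 33.0, 32.6 and 31.0 CPM in KO, against 25.9, 22.7, 25.4 and 22.5 CPM in EV, a log2 fold change of 0.42 (SE 0.0672), and every KO library was above every EV library. Its 3′ neighbour Lancl2, a lanthionine synthetase-like protein on the opposite strand that overlaps Vopp1 by 11632 bases, had 24.9 to 28.2 CPM in KO and 27.0 to 30.1 CPM in EV (−0.12, SE 0.0675). Without a stated strand setting, reads from the overlap of Vopp1 and Lancl2 cannot be told apart, nor can those from the 2234 bases that Fkbp14 and Plekha8 share on opposite strands.

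None of the 4 fitted metabolic enzymes was called in either direction by edgeR with the filter on low counts, where 26% of all genes tested were. However, limma called Hibadh lower on log2(FPKM + 1) and on log2(FPKM + 0.1). In these fits 70.1% and 69.9% of called genes were lower, against 51.5% in the main fit. Hibadh, which acts in valine breakdown and is the first gene of the window, had 48.0, 48.2, 53.0 and 49.2 CPM in KO, against 51.8, 50.5, 55.4 and 54.8 CPM in EV (−0.10, SE 0.0559). Ppm1k, the mitochondrial phosphatase that activates branched-chain ketoacid breakdown, had 6.15 to 6.91 CPM in KO and 6.71 to 8.35 CPM in EV (−0.23, SE 0.113). Nt5c3, a pyrimidine nucleotidase, had 18.7 to 22.2 CPM in KO and 19.7 to 22.9 CPM in EV (−0.02, SE 0.0784). Groups overlapped for these 3 genes. Ggct, which acts in glutathione turnover, was on the other side of 0, with 7.89 to 10.9 CPM in KO and 7.12 to 9.25 CPM in EV (0.20, SE 0.121). Gars, the glycyl-tRNA synthetase, had 193, 197, 202 and 220 CPM in KO and 217, 201, 215 and 216 CPM in EV (−0.06, SE 0.0480). Lsm5, part of the ring that binds U6 RNA, had 8.60 to 12.4 CPM in KO and 8.21 to 13.0 CPM in EV (0.18, SE 0.143), and was called higher when EV replicate 1 was left out.

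Of the remaining fitted members, Mturn, or maturin, known from neural differentiation in the frog, was called lower, with 5.09 to 7.64 CPM in KO and 7.78 to 8.93 CPM in EV (−0.34, SE 0.124). Its call was lost without EV replicate 2, 3 or 4, without KO replicate 2, 3 or 4, without KO replicates 2 and 3 together, in DESeq2, and in limma on log2(FPKM + 0.1) and on log2(FPKM + 1) with no filter. Jazf1, a zinc finger protein that binds the NuA4 acetyltransferase complex, had 1.42 to 2.12 CPM in KO and 1.57 to 3.37 CPM in EV (−0.40, SE 0.237). Pyurf, a mitochondrial protein whose transcript also encodes Pigy, had 19 to 21.8 CPM in KO and 17.9 to 23.2 CPM in EV (−0.06, SE 0.0868). The antisense genes 9530036M11Rik (−0.67, SE 0.397) and Gm15527 (0.10, SE 0.330) lie inside Chn2 on its other strand and averaged 0.410 and 0.740 CPM in KO and 0.656 and 0.689 CPM in EV. Groups overlapped for Jazf1, Pyurf and both antisense genes. As no strand setting was stated, reads of 9530036M11Rik and Gm15527 cannot be told apart from those of Chn2 in the 4051 and 33335 bases they share with it.

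Per unit of gene length, in the FPKM deposited by the authors, the window was led by Fkbp9 at 127 ± 3.89 FPKM in KO and 140 ± 2.05 FPKM in EV, then Gars at 83.4 ± 4.66 FPKM in KO and 90.3 ± 2.63 FPKM in EV and Tax1bp1 at 67.1 ± 1.14 FPKM in KO and 82.9 ± 6.74 FPKM in EV (SD, n = 4 each). Hibadh followed at 26.7 ± 1.19 FPKM in KO and 29.6 ± 1.22 FPKM in EV. Scrn1, Abcg2, Kbtbd2, Fkbp14 and Nod1 formed a close group, from 19.1 to 20.6 FPKM in KO and from 21.7 to 26.8 FPKM in EV. Of the members with the lowest log2 fold changes, Wipf3 (0.536 FPKM in KO, 1.31 FPKM in EV) ranked 26 and Aqp1 (0.841 FPKM in KO, 2.23 FPKM in EV) ranked 20 of the 30 fitted members by FPKM in EV. FPKM values carry no correction for library composition.

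Of the 11 members with counts that were not fitted, Creb5, Cpvl, Prr15, Gm15526, 9130019P16Rik and Rps15-ps2 held 9, 28, 28, 24, 17 and 2 counts over the 4 KO libraries, against 11, 21, 26, 17, 15 and 11 over the 4 EV libraries. Inmt, a methyltransferase of indole amines, had 0, 2, 8 and 1 counts in KO and none in any EV library. Vmn1r4 had 14 counts in KO and 6 in EV, Gm15863 had 7 in KO and 1 in EV, and RP23-13A15.5 had 3 in KO and 0 in EV. Crhr2, a receptor for corticotropin-releasing hormone, had 0 counts in KO and 1 in EV. The 58 silent members included 41 of the 42 Vmn1r rows, which are vomeronasal receptors and their pseudogenes, and the genes for the growth hormone-releasing hormone receptor (Ghrhr), the neuronal transcription factor Neurod6 and the phosphodiesterase Pde1c. A count of 0 allows up to 3 counts, which is 0.125 to 0.159 CPM in KO libraries and 0.131 to 0.164 CPM in EV libraries and covers counting error only.

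The edges of the window can be read from the genes on either side. Just inside its start, Hibadh had a log2 fold change of −0.10 (SE 0.0559), and the nearest fitted gene outside, Hoxa10, 305374 bases away, had 4.28 ± 0.389 CPM in KO and 3.57 ± 0.840 CPM in EV (0.26, SE 0.166). Next to it, Hoxa7 had 35.02 ± 1.43 CPM in KO and 36.5 ± 3.77 CPM in EV (−0.06, SE 0.0719), and Hoxa6 1.19 ± 0.264 CPM in KO and 1.5 ± 0.587 CPM in EV (−0.33, SE 0.301). Just inside the end, Abcg2 stood at −0.29 (SE 0.0524), and outside it Herc3 at −0.19 (SE 0.0861), Tigd2 at −0.17 (SE 0.0804) and Mmrn1 at −0.15 (SE 0.114). Herc3 had 15.7 ± 1.36 CPM in KO and 17.8 ± 1.26 CPM in EV, Tigd2 17.8 ± 1.6 CPM in KO and 19.96 ± 0.840 CPM in EV, and Mmrn1 9.81 ± 0.915 CPM in KO and 10.9 ± 1.59 CPM in EV (SD, n = 4 each). Signs were mixed on the Hoxa side, and the nearest genes past Abcg2 were below 0 with groups that overlapped.

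**Figure D3:**
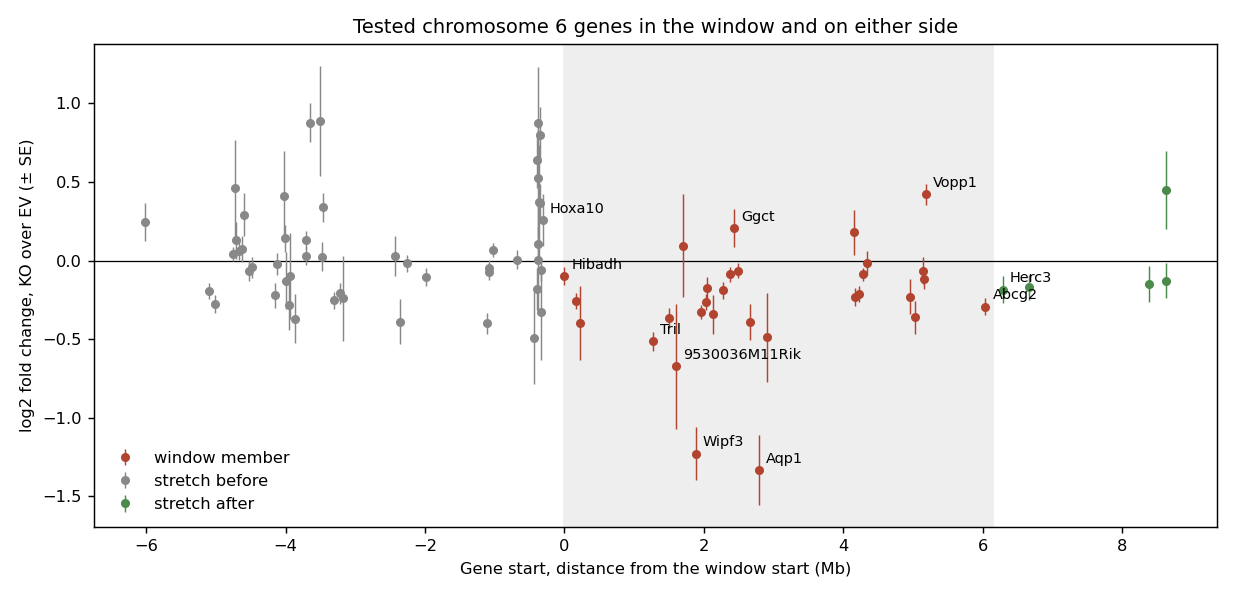
Log2 fold change, KO over EV, ± SE, of fitted chromosome 6 genes against the distance of their start from the window start in Mb, with the window shaded. Window members (red) lie mostly below 0 with Aqp1 and Wipf3 lowest and Vopp1 highest, while the 50 genes of the stretch before (grey) scatter on both sides of 0 and the 5 genes of the stretch after (green) are few.

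In the stretch of equal length before the window, which ends with the Hoxa genes, 50 genes were fitted, 23 were below 0, 6 were called lower and 5 higher, and the median log2 fold change was 0.015. The window's 30 had 26 below 0, 14 called lower, 1 called higher and a median of −0.23. In the stretch of equal length after it, only 5 genes were fitted, of which 4 were below 0 and none was called, with a median of −0.15. The rest of chromosome 6 also leaned downwards: outside the window, 376 of 602 genes were below 0 (62.5%), 143 were called lower and 39 higher, and the median was −0.069. Over all genes tested the median was 0.0050, with 49.0% below 0, 13.4% called lower and 12.6% called higher.

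Chromosome 6 was then divided, after the data had been examined, into stretches of the window's length counted from its start. The window had the lowest median of the 14 stretches with at least 20 fitted genes, which follows in part from how it was chosen, and 6 of the 14 had a median under −0.1. The next lowest, −0.15 over 35 genes, began 24.6 Mb before the window, and the neighbour of that stretch on the window's side had a median of −0.14 over 40 genes. The window had 14 of 30 genes called lower (46.7%), and the stretch of 35 genes had 16 (45.7%), a like share. Of all genes tested, 13.4% were called lower. A thinly filled stretch of 9 genes, 30.7 Mb before the window, had a median of −0.27 and 55.6% of genes called lower, and those of 13 and 14 genes, 43.03 and 86.05 Mb past the window start, had 46.2% and 50% called lower. Of the 14 well-filled stretches, 13 had a median below 0, and the highest, 0.015, was the stretch just before the window.

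**Figure D4:**
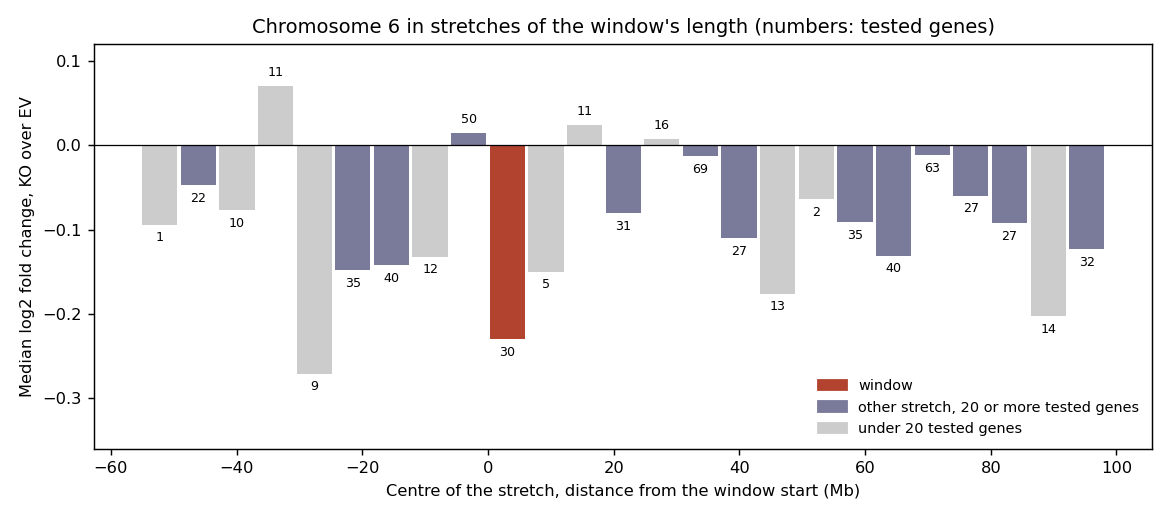
Median log2 fold change, KO over EV, in stretches of the window's length along chromosome 6, against the distance of each stretch's centre from the window start in Mb, with the number of fitted genes at each bar. The window (red) is at −0.23, the stretch before it at 0.015, and bars of stretches with under 20 genes are pale.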

How the data were processed

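Counts per gene were deposited by the authors as raw whole numbers for 35275 genes in 8 libraries, and a second table holds FPKM values that the authors computed. The deposited FPKM equal the counts over gene length and column total for 100% of nonzero values, within 1e-06. The build is mm10 and a tool named is DESeq 1.6.3, per the submitters' processing notes. For the aligner, the counting tool, the gene annotation and the strand, no setting was given in the sources used here.

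Libraries were grouped by title. All genes were fitted with edgeR 4.0.16 (R 4.3.3): TMM scaling and filterByExpr (at least 10 counts, and 15 in total) came before its two-sided quasi-likelihood test, with Benjamini-Hochberg adjustment over 12801 genes and a threshold of 0.05. The standard error is the log2 fold change over the square root of F. No test was made on the window itself. Members and lists were chosen with earlier results of these data known. The rule for named genes took every fitted member with its value in each library, members below the filter with at least 5 counts in a library, Hdac3 and the 3 nearest fitted genes on each side. Ranges stand in for library values of members of less weight, and the other members with counts were added after their values were seen. Log2 deviations by library used a prior of 0.5 counts. Promoters are RefSeq's, GRCm38.p6. Replicates within a group differed by 4.14 to 13.9 chi-square units per degree of freedom, so none was a duplicate.

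Alternatives were DESeq2 1.42.0, other scaling, other filters, limma 3.58.1 on log2(FPKM + 1) or log2(FPKM + 0.1), the replicate block, each library left out, and the window trimmed. A further alternative left out KO replicates 2 and 3.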

Additional observations from a re-analysis of the deposited data

Results flagged for a closer look

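Among 66 groups of 4 libraries examined for a lone high or low library (Dixon's test at the 95% level), 4 stood out, and chance flags about 1 group in 20. Plekha8 was high in KO replicate 2 at 29.0 CPM, against 27.7 to 27.8 CPM in the other KO libraries. Avl9 was low in KO replicate 3 at 82.4 CPM, against 91.1 to 92.3 CPM in the other KO libraries. Znrf2 was low in EV replicate 3 at 53.3 CPM, against 58.0 to 58.7 CPM in the other EV libraries. Gars was low in EV replicate 2 at 201 CPM, against 215 to 217 CPM in the other EV libraries.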

How the results depend on the processing

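The window's median log2 fold change (−0.23) kept its sign under every alternative run: −0.20 in DESeq2 (34 members), −0.28 with library totals alone, −0.20 with no filter on low counts (41 members), −0.19 and −0.27 in limma on log2(FPKM + 1) and log2(FPKM + 0.1), −0.14 in log2(FPKM + 1) with no filter, and −0.26 to −0.18 with 1 library left out. Against the median of all genes in the same fit it was −0.23 in the main fit, −0.21 in DESeq2, −0.24 with library totals alone and −0.19 with no filter. In limma it was −0.15 on log2(FPKM + 1), −0.22 on log2(FPKM + 0.1) and −0.13 on log2(FPKM + 1) with no filter. The window's median moved by more than its spread between libraries (0.027) in DESeq2, with library totals alone, with no filter and in every limma fit. It also did so without EV replicate 1 or 4. Members called lower numbered 14, where 1711 of 12801 genes tested were, and 17 with library totals alone, where 2414 of 12801 were. With 1 library left out they numbered 11 to 15. The 11 were without KO replicate 3, where 1434 of 12942 genes were called lower, and the 15 without EV replicate 1, where 1775 of 12946 were. Among members that overlap no other gene, 9 of 18 were called lower and 0 higher. The share over all genes without an overlap was not computed, and nothing is read from these counts. Vopp1 was the member called higher, joined by Inmt (2 in all) with no filter and by Lsm5 without EV replicate 1 (1 to 2 with 1 library left out). Without KO replicates 2 and 3, 10 members were called lower (Avl9, Herc6, Mturn and Znrf2 were not), where 1094 of 13146 genes were. That fit called 1974 genes in all, against 3324, or 2621 to 3359 with 1 library left out. Over all genes, 1711 were called lower and 1613 higher, but 2414 and 1039 with library totals alone and 2157 and 922 in log2(FPKM + 1). The summed level of the window differed by −11.1% between KO and EV, −14.2% with library totals alone and −11.8% to −10.4% with 1 library left out. Wipf3 and Aqp1 were at −0.59 and −0.83 in log2(FPKM + 1), a scale that shrinks changes of low genes. The Hdac3 log2 fold change (−0.0050) lay between −0.023 and 0.032 with 1 library left out, and was 0.024 without KO replicates 2 and 3. Whether the replicate numbers pair the libraries was not settled. Deviations of same-numbered libraries had correlations of 0.12, −0.033, 0.054 and 0.077 for replicates 1 to 4, and those of differently numbered libraries −0.11 to 0.045. With the replicate block the window's median was −0.23, with 14 members called lower and 3737 genes called in all, against 3324. Of 538 values of single members under alternatives, 522 moved by less than the spread between libraries, and 0 called members changed sign.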

Other observations

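Beyond the window, the chromosomes differed in how their genes were balanced around 0. Chromosome 6 had the lowest median log2 fold change, KO over EV, of the 20 chromosomes with fitted genes examined (−0.078 over 632 genes), with 63.6% of its genes below 0, 24.8% called lower and 6.33% called higher. Without the window its median was −0.069. Chromosome 3 followed with a median of −0.052 and 60.7% below 0. On chromosome 13, at the other end, the median was 0.083, 34.0% of genes were below 0, 8.76% were called lower and 19.2% higher. For all genes tested, 13.4% were called lower and 12.6% higher. These values are descriptions of the 8 libraries, and no test was made of them.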
